A study of Mus musculus with 2 samples.

Results

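The transcripts of the GATA zinc finger factors Gata1, Gata2 and Gata3, of the Fog1 cofactor gene *Zfpm1*, and of the C/EBP genes *Cebpa*, *Cebpb*, *Cebpd*, *Cebpe*, *Cebpg* and *Cebpz* were followed in a pair of cultured early B lineage populations. These 10 genes were listed by name, with earlier results of these data known. Each had 1 RefSeq protein-coding transcript in the deposited FPKM (fragments per kilobase of transcript, scaled to the aligned reads of the library), so that 10 of 26968 protein-coding transcripts and 10 of 20250 named genes are described. Total RNA without rRNA and small RNA was sequenced in 1 library of *Ebf1* -/- pre-pro-B cells, derived from the livers of female embryos, and in 1 library of *Rag2* -/- pro-B cells, derived from adult male bone marrow. Both were of C57BL/6 background and were grown on OP-9 stromal cells with Il-7 at 5 ng/mL. The pre-pro-B cells also received Scf and Flt3l at 10 ng/mL each. Stage therefore cannot be told apart from genotype, sex, age, tissue of origin and cytokines, and no difference below has a replicate check. With bulk RNA, fewer cells expressing a gene and less RNA per cell cannot be told apart either.

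GATA factors bind DNA sites with the letters GATA through zinc fingers. Gata1 drives erythroid, megakaryocyte, mast cell and eosinophil genes, Gata2 acts in stem cells, early progenitors and mast cells, and Gata3 is required for T cell and innate lymphoid development. Fog1 binds the zinc fingers of Gata factors and modifies what they activate or repress. C/EBP proteins are basic leucine zipper factors that bind as dimers. Cebpa and Cebpe direct granulocyte and macrophage programs, Cebpb and Cebpd respond to cytokines and inflammation, and Cebpg lacks a strong activation domain and acts mostly as a dimer partner. *Cebpz*, despite its name, encodes no leucine zipper but a nucleolar protein related to ribosome assembly factors. Both families can turn lymphoid progenitors toward other blood lineages when members such as Gata1, Gata2, Gata3 or Cebpa are expressed at high level.

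The promoters of 3 members are given for the members the results turn on. *Gata3* and *Cebpa* were the members 2-fold or more lower in the pro-B library, while *Cebpg*, the immediate neighbour of *Cebpa* on chromosome 7, was at nearly the same level in both libraries. Their windows are chr2:9878551-9878850 on the minus strand for *Gata3*, chr7:35119043-35119342 on the plus strand for *Cebpa* and chr7:35056517-35056816 on the minus strand for *Cebpg*. The windows run from 250 bases before to 50 bases after the RefSeq start on the GRCm38.p6 assembly, each read along its gene. Capitals mark the CCAAT box, found here as its reverse complement ATTGG, or else the TATA box, found as TATAAA, in the windows that hold them.
Gata3: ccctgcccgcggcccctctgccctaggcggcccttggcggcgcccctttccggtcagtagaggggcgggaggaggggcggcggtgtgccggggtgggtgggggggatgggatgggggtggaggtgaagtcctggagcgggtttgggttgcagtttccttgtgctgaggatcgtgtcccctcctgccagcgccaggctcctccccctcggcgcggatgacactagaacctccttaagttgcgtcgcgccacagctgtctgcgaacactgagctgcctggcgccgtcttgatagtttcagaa
Cebpa: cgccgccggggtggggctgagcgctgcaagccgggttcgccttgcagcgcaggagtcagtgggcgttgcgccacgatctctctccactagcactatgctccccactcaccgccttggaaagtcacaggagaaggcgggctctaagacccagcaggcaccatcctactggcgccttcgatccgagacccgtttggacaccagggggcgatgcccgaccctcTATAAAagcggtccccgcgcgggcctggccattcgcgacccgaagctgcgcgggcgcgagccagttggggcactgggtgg
Cebpg: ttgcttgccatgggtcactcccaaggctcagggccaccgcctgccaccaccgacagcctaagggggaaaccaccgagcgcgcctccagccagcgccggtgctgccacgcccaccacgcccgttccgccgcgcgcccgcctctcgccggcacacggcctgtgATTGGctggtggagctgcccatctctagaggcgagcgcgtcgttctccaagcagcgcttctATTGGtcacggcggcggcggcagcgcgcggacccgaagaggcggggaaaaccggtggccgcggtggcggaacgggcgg

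The *Cebpa* window held TATAAA from position -30, counted from the start at 1, whereas the *Cebpg* window held ATTGG from positions -89 and -28 and no TATAAA. Of the other members, *Cebpb*, which differed little between the libraries, also held TATAAA, but from position 22, after the start. *Gata2*, listed at 0 in both, also held the CCAAT box. The presence of these letters, without regard to position, thus does not sort with the levels. On either strand, CCAAT was present in 37.4% and TATAAA in 13.6% of 32851 such promoters. The letters GATAA, the core of a GATA site, and TTGCNNAA, a C/EBP-like site, were in 25.4% and 10.8% of all promoters and in none of the 8 windows found for the 7 members with an entry (*Gata1*, *Gata2*, *Gata3*, *Zfpm1*, *Cebpa*, *Cebpb* and *Cebpg*). These 4 motifs do not overlap one another in the windows printed. The GC content of the windows printed was 67.3%, 67.3% and 71.7%, against a median of 52.7% over all promoters.

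The levels of the 10 genes spanned the range from a listed 0 to a level above 89.3% of all genes. In pre-pro-B cells 7 of the 10 had an FPKM of at least 1, and in pro-B cells 5 did. Of the members, only *Cebpg* and *Cebpz* exceeded an FPKM of 10, and they did so in both libraries. Each FPKM below comes with the lower and upper limits of the 95% confidence interval from the model of Cuffdiff, which describes 1 library and not the spread between cultures.

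**Figure D1:**
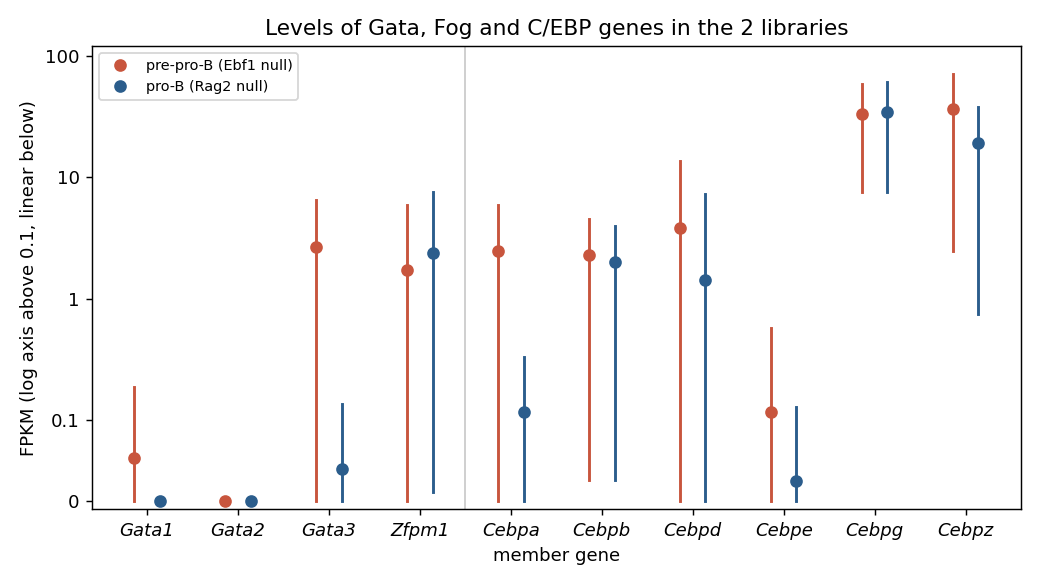
FPKM of each member (points) with Cuffdiff's 95% confidence interval (lines) in the pre-pro-B and pro-B libraries, on an axis that is logarithmic above 0.1 and linear below. *Gata3* and *Cebpa* lie below 0.2 in pro-B cells, *Cebpg* and *Cebpz* lie above 10, and the intervals of each gene overlapped.

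*Gata3* was the main transcript among the 3 Gata members, and nearly all of it was in pre-pro-B cells. NM_008091 (chromosome 2 of mm9, 9778705 to 9800227, minus strand, 3215 bases) had an FPKM of 2.64 (limits 0 to 6.45) in the pre-pro-B library, against 0.0392 (limits 0 to 0.135) in the pro-B library. On the log2(FPKM + 1) scale, used for all log2 changes here, this is a change of -1.81, and 922 of the 20250 genes had a more negative one. Without a pseudocount the ratio was 67.4-fold. At the approximate depth of 90 M reads that the labels state, the FPKM correspond to about 765 and 11.4 fragments, so the low value rests on few reads. On the annotation, *Gm13256* overlaps the quantified span by 1345 bases on the opposite strand, while 9230102O04Rik, on the same strand, overlaps it by 0 bases. *Gata3* supplied 98.0% of the summed FPKM of the 3 Gata members in pre-pro-B cells.

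*Gata1* and *Gata2* were at or near 0 throughout. *Gata1* (NM_008089, chromosome X, 7536386 to 7545036, minus strand) reached 0.0532 FPKM in the pre-pro-B library (limits 0 to 0.187), about 9.10 fragments, and was listed at 0 in pro-B cells. *Gata2* (NM_008090, chromosome 6, 88148658 to 88157026, plus strand) was listed at 0 in both. For comparison, 3 fragments would give these transcripts an FPKM of about 0.0175 and 0.0103. A listed 0 is the estimate of Cuffdiff and is not read as absence, and no fold is given against it.

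*Zfpm1*, which encodes Fog1, was present at a low level in both libraries and did not follow *Gata3*. NM_009569 (chromosome 8, 124806041 to 124861147, plus strand) had an FPKM of 1.73 (limits 0 to 5.87) in the pre-pro-B library, against 2.35 (limits 0.0117 to 7.48) in the pro-B library. The log2 change was 0.30, in the opposite direction to that of *Gata3* and less than 2-fold. A second annotated gene, *Gm20388*, covers the whole span of *Zfpm1* on the same strand. The exons of these 2 genes were not compared, so it is not known whether their reads can be separated.

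*Cebpa* was the C/EBP member with the strongest difference. NM_007678 (chromosome 7, 35904312 to 35906951, plus strand) had an FPKM of 2.48 (limits 0 to 5.85) in the pre-pro-B library, against 0.116 (limits 0 to 0.329) in the pro-B library. The log2 change was -1.64, the ratio without a pseudocount was 21.4-fold, and the values correspond to about 589 and 27.5 fragments. The gene has a single exon, since its span of 2640 bases equals the transcript length, and reads from unspliced RNA therefore cannot be set apart.

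*Cebpg*, which starts 62.7 kb from the *Cebpa* start and runs away from it on the opposite strand, did not share this difference. NM_009884 (chromosome 7, 35831441 to 35841585, 4702 bases) had an FPKM of 33.2 (limits 7.58 to 58.7) in the pre-pro-B library, against 34.6 (limits 7.52 to 60.8) in the pro-B library, a log2 change of 0.06. It was above 88.3% of all genes in pre-pro-B cells and above 89.0% in pro-B cells. The FPKM of *Cebpa* was 7.47% of that of *Cebpg* in the first library and 0.335% in the second, a comparison that no scaling between libraries can alter.

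The inducible members *Cebpb* and *Cebpd* were low in both populations. *Cebpb* (NM_009883, chromosome 2, 167514415 to 167515918, plus strand) had an FPKM of 2.28 (limits 0.0263 to 4.52) in the pre-pro-B library, against 1.99 (limits 0.0263 to 3.94) in the pro-B library, a log2 change of -0.14. This single-exon gene overlaps *Tmem189* on the opposite strand by 908 bases. *Cebpd* (NM_007679) had an FPKM of 3.81 (limits 0 to 13.6) against 1.42 (limits 0 to 7.20) in the same order. Without a pseudocount the ratio of *Cebpd* was 2.68-fold. Its log2 change of -0.99, with the pseudocount of 1, lay just short of 2-fold and passed it under some of the alternatives described in the closing section. Cuffdiff handled *Cebpd* in 1 locus with *Spidr* (chromosome 16, 15887379 to 16146926), and *Spidr* had an FPKM of 11.7 and 15.9, so the part of reads given to *Cebpd* also depends on that division.

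*Cebpe*, the factor of late granulocyte maturation, had an FPKM of 0.117 (limits 0 to 0.574) in the pre-pro-B library, against 0.0248 (limits 0 to 0.128) in the pro-B library. These values of NM_207131 (chromosome 14, 55329200 to 55331011, minus strand) correspond to about 13.0 and 2.76 fragments. Without a pseudocount the ratio was 4.71-fold, but it rests on too few fragments for a difference in *Cebpe* to be read from it.

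*Cebpz* was abundant in both libraries and lower in pro-B cells by less than 2-fold. NM_001024806 (minus strand, in a locus on chromosome 17, 79315839 to 79336410) had an FPKM of 36.0 (limits 2.48 to 70.0) in the pre-pro-B library, against 19.2 (limits 0.743 to 37.6) in the pro-B library. The log2 change was -0.88. The transcript shares its locus with *Cebpzos*, whose transcripts NM_001177402 and NM_001177403 had an FPKM of 16.6 and 2.02 in pre-pro-B cells and of 12.7 and 1.74 in pro-B cells.

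The leucine zipper C/EBP transcripts were dominated by *Cebpg*, and more so in pro-B cells. Summed over *Cebpa*, *Cebpb*, *Cebpd*, *Cebpe* and *Cebpg*, the FPKM was 41.9 in the pre-pro-B library against 38.1 in the pro-B library. *Cebpg* accounted for 79.3% and 90.7% of it. The other 4 genes together had an FPKM of 8.69 and 3.55. Within the sum, the share of *Cebpa* was 5.92% and 0.304%, that of *Cebpb* 5.45% and 5.21%, and that of *Cebpd* 9.09% and 3.73%.

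**Figure D2:**
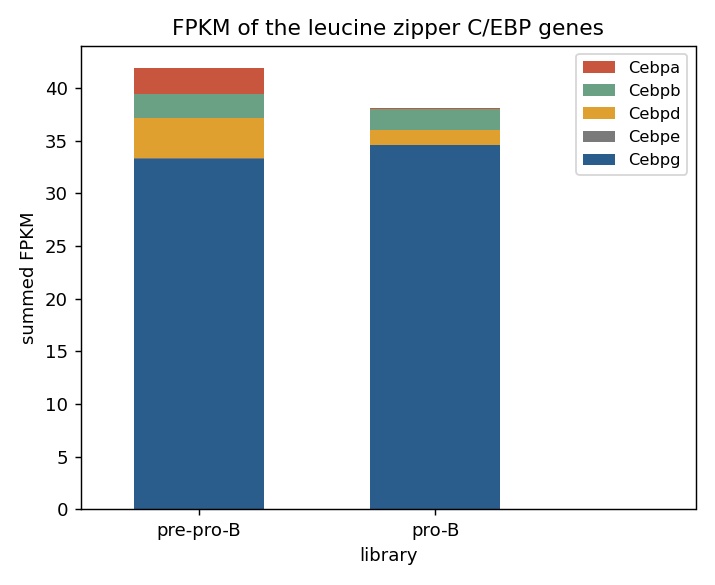
Summed FPKM of the 5 leucine zipper C/EBP genes in each library, stacked by gene. *Cebpg* makes up 79.3% of the pre-pro-B bar and 90.7% of the pro-B bar, and the *Cebpa* segment is visible mainly in pre-pro-B cells.

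In order of level, pre-pro-B cells had *Cebpz*, *Cebpg*, *Cebpd*, *Gata3*, *Cebpa*, *Cebpb*, *Zfpm1*, *Cebpe*, *Gata1* and *Gata2*. In pro-B cells the order was *Cebpg*, *Cebpz*, *Zfpm1*, *Cebpb*, *Cebpd*, *Cebpa*, *Gata3* and *Cebpe*, with *Gata1* and *Gata2* listed at 0. Each pair of neighbours in either order had overlapping intervals. *Gata3* thus stood above *Cebpa* and *Zfpm1* in the first order and below both in the second.

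Counted at 2-fold, 2 of the 10 members (*Gata3* and *Cebpa*) were lower in pro-B cells and 0 were higher. Of the 10131 genes with a mean FPKM of at least 1 over the libraries, 17.9% were lower and 12.2% were higher by this rule, and over all 20250 genes the shares were 9.94% and 6.34%. The mean was at least 1 for 7 members and below it for *Gata1*, *Gata2* and *Cebpe*. The median log2 change was -0.04 for the 4 Gata and Fog members and -0.51 for the 6 C/EBP members, against 0 over all genes. Of all genes, 5855 were listed at 0 in both libraries. Over the 10131 genes with a mean FPKM of at least 1 the median was -0.13. Read against this background, the count of 2 in 10 does not set the members apart. Cuffdiff's intervals overlapped for 10 of 10 members, including *Gata3* and *Cebpa*, and did not overlap for 3.02% of the 18877 protein-coding transcripts above 0 in a library and for 4.4% of the 12875 that reached an FPKM of 1. The lower limits of *Gata3* and *Cebpa* were at 0 in both libraries, so their intervals had to overlap, and the overlap does not show that the differences lie within the error.

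**Figure D3:**
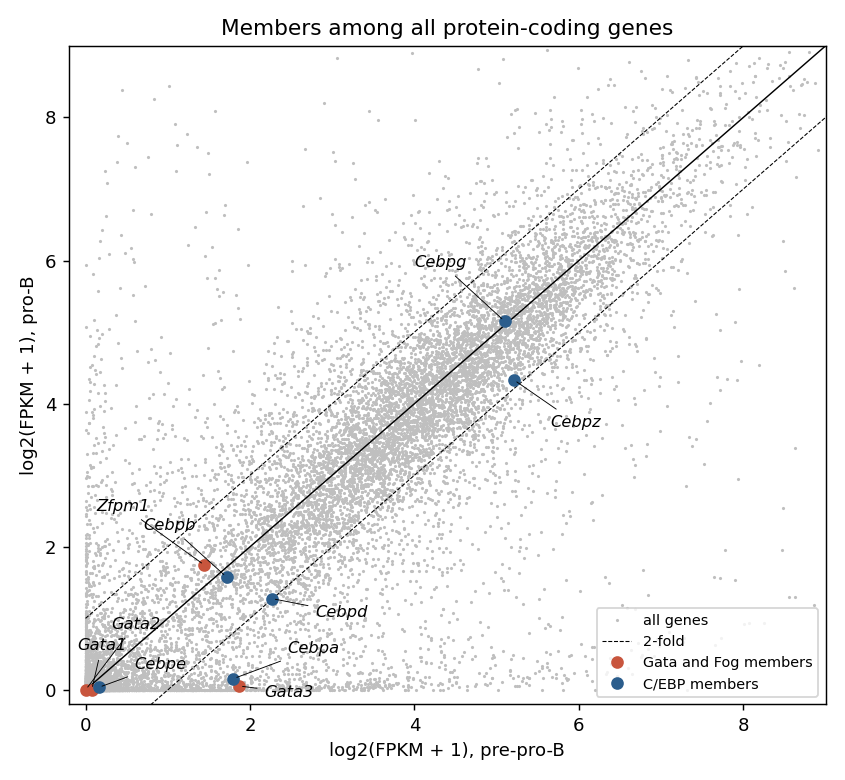
Log2(FPKM + 1) in pre-pro-B cells (x axis) and pro-B cells (y axis) for all genes (grey) and the members (colored), with dashed lines at 2-fold and axes that end at 9. *Gata3* and *Cebpa* lie below the lower line, *Cebpd* lies next to it, and *Cebpg* lies near the diagonal.

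Other members of the Gata and Fog families were mostly within 2-fold or near 0. Of 8 such genes, 4 with a mean FPKM of at least 1, 1 was 2-fold or more lower in the pro-B library and 0 were higher, with a median log2 change of -0.08. The lower gene was *Gatad2a*, a subunit of the NuRD repressor complex, with an FPKM of 7.36 in the pre-pro-B library against 1.17 in the pro-B library. *Trps1* was at 11.3 and 7.23, within 2-fold and above *Gata3* in both libraries. *Gata4* was at a listed 0 in the pre-pro-B library and at 0.782 in the pro-B library. *Gata5* and *Zfpm2* were listed at 0 in both libraries.

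Several partners of Gata1 and Gata2, among them *Lmo2* and *Lyl1*, were present in pre-pro-B cells, where *Gata1* and *Gata2* were near or at a listed 0. Of 7 partner genes, 5 with a mean FPKM of at least 1, 3 were 2-fold or more lower in the pro-B library and 0 were higher, with a median log2 change of -1.05. The LIM bridge gene *Lmo2* had an FPKM of 26.9 in the pre-pro-B library against 0.930 in the pro-B library, and the basic helix-loop-helix gene *Lyl1* had 22.4 and 3.28. *Nfe2*, a leucine zipper factor of the megakaryocyte and erythroid lineages, had an FPKM of 12.1 (limits 0.450 to 31.8) against 0.0207 (limits 0 to 0.0948), without overlap. *Tal1* was lower too (1.18 and 0.0501) but its mean FPKM was below 1. *Klf1*, the erythroid Krüppel-like factor, was at 0.196 and 0.145. The partner genes *Ldb1* (72.5 and 36.4) and *Gfi1b* (16.2 and 8.78) were within 2-fold and remained present in pro-B cells.

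Genes of the lineages in which Gata1 and Gata2 act were mostly at or near 0 in both libraries. Of 11 erythroid and megakaryocyte genes measured, 4 were listed at 0 in both, among them the globin gene *Hba-a1* and the platelet factor gene *Pf4*, and the summed FPKM was 4.30 in the pre-pro-B library against 0.274 in the pro-B library. The 1 gene of the 11 with a mean FPKM of at least 1, the platelet glycoprotein gene *Gp9*, was at least 2-fold lower, from 2.64 to a listed 0. Of 9 mast cell and basophil genes, 1 had a mean FPKM of at least 1 and was lower and 0 were higher, and 6 were listed at 0 in both, among them *Ms4a2* and *Fcer1a*, which encode chains of the IgE receptor. *Cpa3*, the mast cell carboxypeptidase gene, was at 10.5 in the pre-pro-B library against 0.0296 in the pro-B library, a log2 change of -3.48.

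T lineage genes, the setting in which Gata3 is best known, were unevenly represented beside it. Of 9 genes, 4 with a mean FPKM of at least 1, 3 were 2-fold or more lower in the pro-B library and 0 were higher, with a median log2 change of -0.62. *Cd28*, a costimulatory receptor gene, had an FPKM of 48.8 in the pre-pro-B library against 0.209 in the pro-B library. *Tcf7*, the Wnt pathway factor of early T cells, had 38.9 and 0.118, and *Cd3g*, a chain of the T cell receptor complex, had 36.8 and 0.0351. Cuffdiff's intervals did not overlap for these 3 genes. *Cd3e*, *Cd8a* and *Bcl11b* had an FPKM of 0.239, 0.322 and 0.268 in pre-pro-B cells, low values where *Gata3* was highest. *Lat*, an adaptor gene of the same receptor, went the other way with 9.48 and 19.8. The summed FPKM of the 9 genes was 137 in the pre-pro-B library against 20.3 in the pro-B library, and the part of such cells in the *Gata3* value was not tested.

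Myeloid genes that C/EBP factors regulate were mostly at or near 0 as well. Of 16 genes, only 4 had a mean FPKM of at least 1. Of these 4, 3 were 2-fold or more lower in the pro-B library and 0 were higher. The median log2 change was -0.03 over the 16 genes, against 0 over all genes. A further 6 were listed at 0 in both libraries (*Elane*, *Ctsg*, *Ltf*, *Camp*, *Ngp* and *S100a9*, all of granules or the cytosol of neutrophils). *Mpo*, the myeloperoxidase gene of early granulocytes, had an FPKM of 35.7 (limits 2.70 to 76.1) in the pre-pro-B library, against 0.122 (limits 0 to 0.450) in the pro-B library. *Lyz2*, the myeloid lysozyme gene, was at 5.39 and a listed 0. *Itgam*, an integrin chain, was at 19.7 and 6.40, summed over 2 transcripts. Of these, 1 had 13.9 and 0.0196 without overlap of intervals, so nearly all of the pro-B value came from the other. *Csf3r* and *Csf1r*, the receptor genes of the granulocyte and macrophage growth factors, were at 0.00624 and 0.170 in pre-pro-B cells and were at a listed 0 in the pro-B library. *Csf2ra*, the remaining gene of the 4 with a mean FPKM of at least 1, was within 2-fold at 9.80 and 6.72. *S100a8* (1.24 and a listed 0) and *Lcn2* (a listed 0 and 0.626) went in opposite directions, each with a mean FPKM below 1. The summed FPKM of the list was 72.5 and 13.9, and the part of myeloid cells in the *Cebpa* value was not tested.

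Among dimer partners and regulators of C/EBP proteins, changes went in both directions and the largest was that of *Trib2*. Of 9 genes, 7 with a mean FPKM of at least 1, 2 were at least 2-fold lower and 2 higher in pro-B cells, with a median log2 change of 0.45. *Trib2*, a pseudokinase that targets Cebpa protein for degradation together with the ubiquitin ligase Cop1, had an FPKM of 0.788 (limits 0 to 1.84) in the pre-pro-B library, against 306 (limits 41.5 to 570) in the pro-B library. Its log2 change of 7.42 had rank 6 among the increases of 20250 genes. *Trib1*, its relative with the same activity, had 1.07 and 7.28, and *Cop1* had 13.3 and 18.5. The lower genes were *Nfil3* (16.6 and 0.299), a leucine zipper factor of innate lymphoid and natural killer cells, and *Batf* (7.13 and 0.619). *Ddit3*, which encodes the C/EBP-related dimer partner Chop, was at 13.0 and 8.84.

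**Figure D4:**
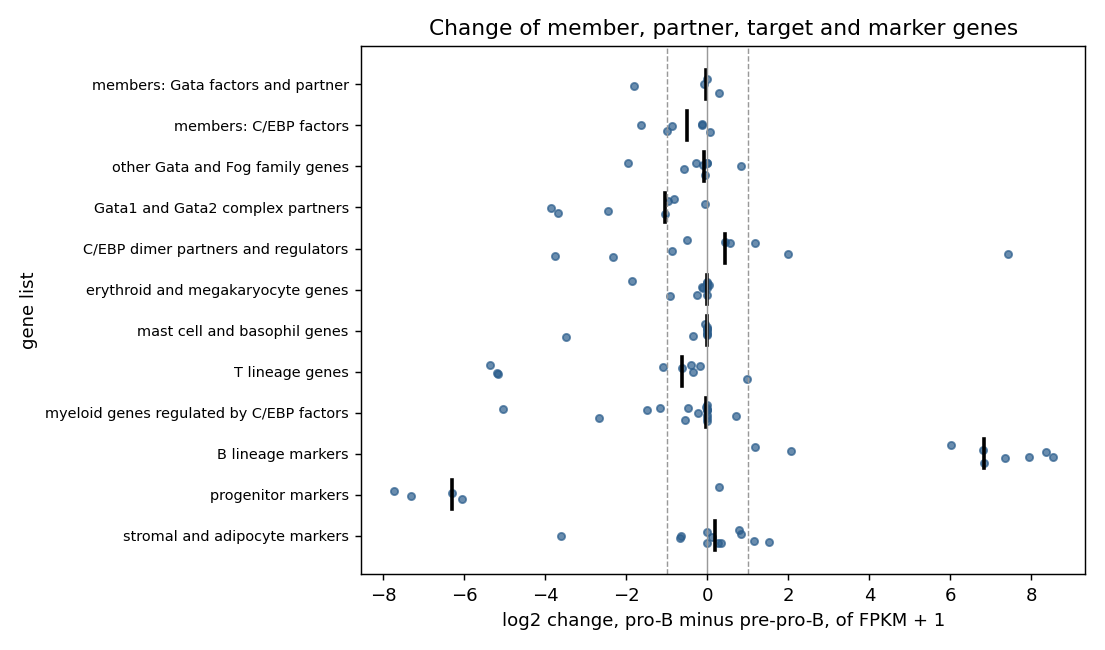
Log2 change from pre-pro-B to pro-B cells of each gene (points) in the lists of members, relatives, partners, target genes and markers, with the list median (black bars) and dashed lines at 2-fold. The most positive point outside the B lineage markers is *Trib2* at 7.42, and the members lie between -1.81 and 0.30.

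The identity of the libraries was checked on marker genes. Of 9 B lineage markers 9 were 2-fold or more higher in the pro-B library, for example *Pax5* with an FPKM of 1.13 and 239. Among these 9 is *Ebf1*, which is deleted in the pre-pro-B cells and so is no independent check of identity. Of 5 progenitor markers 4 were lower, for example *Flt3* with 303 and 0.916. The deleted genes gave reads in their own null cells, at an FPKM of 64.0 for *Ebf1* in pre-pro-B cells against 273 in pro-B cells, and of 22.9 for *Rag2* in pro-B cells against 34.5 in pre-pro-B cells. An FPKM over the whole transcript does not show which exons the reads came from. Since OP-9 cells are adipogenic and C/EBP genes act in fat cells, 12 stromal and adipocyte markers were examined. Of these, 1 was 2-fold or more lower in the pro-B library (*Pdgfrb*, 15.9 and 0.377) and 2 were higher, the collagen gene *Col1a2* (0.707 and 2.82) and the fibronectin gene *Fn1* (1.16 and 5.16). Their summed FPKM was 25.0 in the pre-pro-B library against 16.0 in the pro-B library, and without *Pdgfrb* it was 9.06 and 15.7. *Dcn* and *Postn* were listed at 0 in both, and *Adipoq* was at 0.605 and 0.0268. *Fabp4*, another marker of the list, was at 4.71 and 2.57, above *Cebpa* and *Cebpb* in both libraries. *Sparc* was at 1.13 and 2.81. The part of stromal RNA in the low values of *Cebpb*, *Cebpd* and *Cebpa* was not tested.

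The changes of the members depended on how low values were treated. Because *Gata3* and *Cebpa* had an FPKM of 2.64 and 2.48 in the library where they were higher, a pseudocount of 5 reduced their log2 changes to -0.60 and -0.55, and one of 0.1 enlarged them to -4.30 and -3.58. Both stayed lower in pro-B cells under each setting. A pseudocount cannot change the direction, and with 1 transcript per member the choices of transcript left the values unchanged. Only TPM and median-ratio scaling could have changed the direction. *Cebpg* had a log2 change between -0.06 and 0.14 across the settings, so that its direction was not determined.

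**Figure D5:**
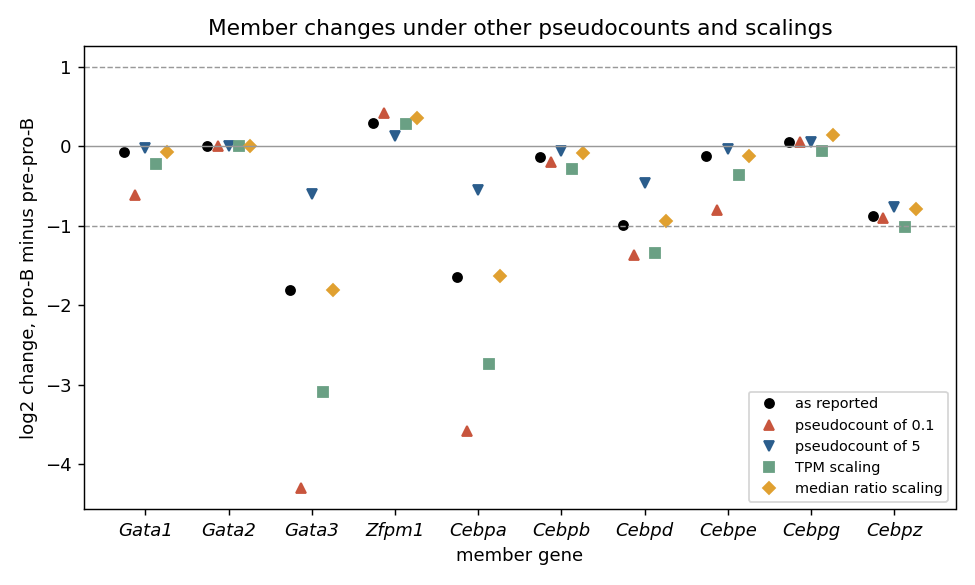
Log2 change of each member as reported and under other pseudocounts and scalings, with dashed lines at 2-fold. The *Gata3* values range from -4.30 to -0.60 and the *Cebpa* values from -3.58 to -0.55, while the *Cebpg* values lie between -0.06 and 0.14.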

How the data were processed

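RNA-seq was analysed in 2 libraries, 1 for each cell type, grouped by the labels. The authors trimmed the 97 bp single-end reads and aligned them strand-specifically to mm9 with TopHat (version 1.5 in the submitters' processing notes). They computed the deposited FPKM and 95% confidence limits for RefSeq transcripts with Cuffdiff 2.1.1, using multi-read and bias correction, up to 20 alignments per read and no scaling between libraries. Reads that fit several places or transcripts are thus divided by a model. A second deposited table holds the authors' own fold changes, p-values and q-values and was not used, nor were its 2 columns of FPKM.

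Gene names came from a RefSeq table of GRCm38.p6, which matched 26173 of 26580 protein-coding accessions, and FPKM were summed per gene. Strand, exons and overlaps came from GENCODE on NCBIM37, the assembly of mm9, and promoters from RefSeq on GRCm38.p6. Log2 changes used a pseudocount of 1, which understates the change of low genes, and calls were made at 2-fold, with a mean FPKM of at least 1 for counts over lists. With 1 library per cell type no test was possible. The table gives no counts, the study's read totals were not used here, and fragments were approximated from the 90 M reads stated in the labels, so they give orders of magnitude only. The calling code was tested on simulated data, which says nothing of false calls between cultures. All 10 members are named with their values. Values of some list genes are not reported here. For the other lists, counts are given, with up to 4 genes in each direction among those changed at least 2-fold, and markers listed at 0. Some further genes of the lists (*Trps1*, *Gata4*, *Ldb1*, *Gfi1b*, *Klf1*, *Cd3e*, *Cd8a*, *Bcl11b*, *Lat*, *Csf3r*, *Csf1r*, *Csf2ra*, *Lcn2*, *Cop1*, *Ddit3*, *Adipoq*, *Fabp4* and *Sparc*) were named after their values were seen. The members and lists were chosen with earlier results of these data known. Python 3.11.15, numpy 2.4.6, pandas 2.3.3 and matplotlib 3.10.9 were used. The alternatives were other pseudocounts, TPM and median-ratio scaling, the most abundant transcript of each gene, transcripts with status OK, single counting of repeated accessions, and other filters.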

Additional observations from a re-analysis of the deposited data

How the results depend on the processing

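The count of members 2-fold or more lower in the pro-B library was 2 as reported, 4 with TPM scaling (*Gata3*, *Cebpa*, *Cebpd* and *Cebpz*), 3 with a pseudocount of 0.1 (with *Cebpd*) and 0 with a pseudocount of 5. TPM scaling multiplies the FPKM by 3.20 for the pre-pro-B library and by 2.95 for the pro-B library, so a pseudocount of 1 weighs less. Among genes with a mean FPKM of at least 1, the median shift of a gene's log2 change was -0.12. The log2 change of *Gata3* was -3.09 with TPM. No member was at least 2-fold higher under any of the 7 alternatives. Among the genes of the other 7 lists, 2 were higher as reported and 4 with TPM, while the count of 14 lower ones stayed within 1.5 times. Of the 10 members, 1 (*Cebpg*) changed sign, at -0.06 with TPM. The share of all genes lower in pro-B cells, 17.9% as reported, was 9.94% without a filter and 9.83% with a pseudocount of 5, and the share higher, 12.2%, was 6.34% and 7.75%. No library could be left out, and no paired analysis was possible because the result comes from no test, with 1 library per cell type. With approximate fragments below 30 behind the low *Gata3*, *Cebpa*, *Cebpe* and *Gata1* values, their exact ratios are poorly determined.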
